A study of Mus musculus with 14 samples.

Results

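Genes with very low RNA levels in C2C12 myoblasts, a mouse muscle precursor cell line, were followed after depletion of the Quaking isoform Qk5. Genes were selected on the authors' deposited means, in counts divided by size factors. The Qk5-depleted mean had to be at least 5 and at least 3 times the control mean, and the control mean under 20. Myoglobin (Mb) and Tnnt1 were left out. In all, 73 of the 1036 genes of the deposited expression table met this rule. That table holds genes with an adjusted p under 0.1 in at least 1 comparison, so genes outside it are not described.

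Quaking (gene Qk) is an RNA-binding protein of the STAR family that acts on splicing, stability and translation of its target RNAs. Its main isoforms differ at the C-terminal end: Qk5 is mostly nuclear, while Qk6 and Qk7 are found largely in the cytoplasm. In muscle cells Quaking is known as a splicing regulator, and cultured myoblasts leave the cell cycle and switch on contractile genes when they differentiate.

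The groups were cells transfected with small interfering RNA (siRNA) specific for Qk5, siRNA specific for Qk6 and Qk7, or control siRNA, with 3 replicates each. All were C2C12 cells, a single line labelled as myoblasts, kept in high-glucose DMEM with serum, transfected with Lipofectamine 2000 and lysed in TRIzol, and libraries were made after removal of ribosomal RNA with RiboZero. The sources used here give neither the siRNA sequences nor the time after transfection. The labels do not state whether the replicates are separate cultures. Deposited p-values may therefore reflect technical spread alone. A further set depleted of all Qk isoforms has 1 replicate and was not analysed here.

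The targeted gene was checked first. Qk had means in the authors' deposited table of 3267 normalized counts in Qk5-depleted cells, 5271 in Qk6/7-depleted cells and 5875 in control cells. These are values for the whole gene and do not separate the isoforms. Of the 8 myotube marker symbols listed for this check, 7 were in the table and 6 were called higher in Qk5 depletion (DESeq adjusted p under 0.05, as deposited). Mymk and Tmem8c on this list are names of the same gene, which the table holds as Tmem8c. Over the 963 table genes that did not meet the rule, which include these markers, 31.2% were called higher. Of the fibroblast markers 2 of 6 (Dcn and Col1a1) were in the table and Dcn was called higher, and of the neuron markers 1 of 5 (Tubb3), also called higher. The myoblast marker Myf5, the osteoblast marker Runx2 and the macrophage marker Cd68 were in the table and were not called. No marker of smooth muscle, adipocytes, chondrocytes, endothelium, Schwann cells or oligodendrocytes was in the table. The part of other cell types in the results was not tested. Levels of markers outside the table are not known here, and no list of epithelial markers was drawn up. Because RNA came from whole cultures, a gene used by more cells and more RNA per cell cannot be told apart.

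The table gives means over 3 libraries and no value per library. Each mean is a sum of 3 whole read counts, each divided by 3 times its library's size factor, and the low means fell on such a grid. The size factors and the read counts behind all 73 genes were recovered from it. For Qk5 depletion 16 candidate grids fitted all the low means, and the coarsest was used here. A deposited p-value depends on the summed reads of a condition, not only on its mean, which gave a check of that sum. The split of the sum over the 3 libraries rests on the digits of the means and was not checked by the p-values. The DESeq dispersion solved from the Qk5 p-value equalled that solved from the Qk6/7 p-value in 332 of the 332 genes where both could be solved, with a largest gap of 0.00457%. Of the 73 genes, 64 could be checked in this way and the other 9 could not. Where several solutions of a gene remained, the match itself picked the solution, so a match in such genes is no check. None of the 73 genes was solved by such a pick, and the number among the other genes is not given here. Size factors ran between 0.521 and 1.38. Libraries are given below in order of depth, deepest first. Which replicate number a library carries is not known here, and libraries of the same depth rank in different conditions are not known to belong together.

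The genes were low in control cells but mostly not undetected. They had a median of 104 recovered reads per gene over the 3 Qk5 libraries, 25 over the 3 Qk6/7 libraries and 22 over the 3 control libraries. In 71 of 73 at least 1 read fell in a control library. The ratio of the deposited Qk5 mean to the control mean had a median of 4.70 and reached 26.3. It was 10 or more in 10 genes with a control mean above 0, and under 5 in 38. These values chose the genes and are given without a test. The authors' deposited table called 60 of them higher in Qk5 depletion at an adjusted p under 0.05. The share was 2.17% over the 16604 genes tested and 31.2% over the 963 table genes that did not meet the rule. Entry to the table already needed an adjusted p under 0.1 in at least 1 comparison, and the rule used the Qk5 means. The number called thus follows largely from the selection, and nothing is read from the difference. The other 13 of the 73 genes had adjusted p-values of 0.0543 to 0.0977.

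**Figure D1:**
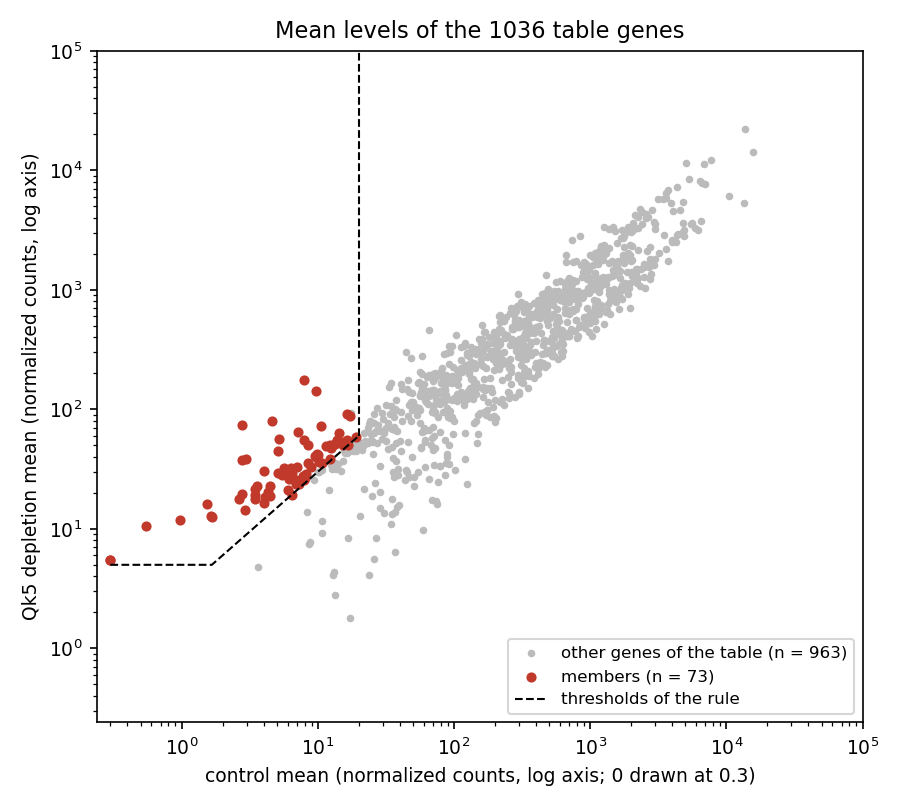
Deposited mean level in Qk5 depletion (vertical axis) against control (horizontal axis) for the 1036 table genes, in normalized counts on log axes. The 73 genes that meet the rule (red) lie left of a control mean of 20 and above the dashed thresholds, and the 2 genes with a control mean of 0 are drawn at 0.3.

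At the ratio threshold, the circadian transcription factor Npas2 had a ratio of 3.01, the growth factor Fgf10 3.05 and the protocadherin Pcdhb14 3.05. Just outside it lay the sulfatase Arsg at 2.99, the synaptic protein Unc13a at 2.97 and the amino acid transporter Slc7a7 at 2.97. The values on both sides of the threshold are thus close together.

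One library stood apart and touches every result on Qk5. The highest of a gene's 3 Qk5 values was in the deepest library in 69 of the 73 genes. This was also the case in 208 of the 270 other table genes whose counts were recovered. The deepest library held a median of 58.7% of a gene's summed normalized count in Qk5 depletion, 49.7% in Qk6/7 depletion and 43.7% in control, where equal libraries would give 33.3%. In the 270 other genes the medians were 47.8% in Qk5 depletion, 39.3% in Qk6/7 depletion and 42.7% in control.

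The same genes tended to lean on the deepest library in all 3 conditions. Over the 73 genes, the share in the deepest Qk5 library correlated with that in the deepest Qk6/7 library (Spearman rho = 0.53, Pearson r = 0.53). With the deepest control library rho was 0.48 and r was 0.45 over the 71 genes with control reads. These are descriptions across genes, which share the libraries and are not independent replicates. The part of depth in this pattern was not tested.

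Ratios were smaller without that library. The remaining libraries are part of the means that chose the genes, so the values below describe the selection and support nothing. With the deepest library of every condition removed, the median ratio was 3.86, against 6.19 between the deepest libraries alone. The ratio was then at least 3 in 55 genes and under 2 in 6, the lowest being 1.44 (Rasgef1a, an exchange factor for Ras-type GTPases). With only the deepest Qk5 library removed and all control libraries kept, the median ratio was 3.10, 40 of the 73 genes were at 3 or more, and the lowest ratio was 0.82 (Fgf10).

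In 59 of the 73 genes every Qk5 library lay above every control library. The same held in 42.3% of all 343 genes whose counts were recovered and in 31.9% of the 270 other genes. The rule chose for this contrast, so nothing is read from the difference. The 14 genes whose Qk5 and control libraries overlapped were Lama3, Fgf10, Gm5662, Serpinb9e, Serpinb1b, Accsl, Gpr35, Gda, Rasgef1a, Grip1, Npas2, Gm8300, AK039595 and Isx.

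The 73 genes were placed in 8 groups by what their products are known to do. This grouping was made after the values had been seen, so groups are described and not tested.

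Clade B serpins, intracellular relatives of the secreted protease inhibitors, formed the family with the most members. There were 7: Serpinb7, Serpinb1b, Serpinb6c, Serpinb9c, Serpinb9e, Serpinb9f and Serpinb9g. Of these, 6 sit in 1 block of chromosome 13, while Serpinb7 lies elsewhere. Serpinb9, after which the 9 subfamily is named, inhibits granzyme B, and Serpinb1a inhibits neutrophil proteases.

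Serpinb9e, Serpinb9f and Serpinb9g have start regions that are nearly the same sequence. They are shown because reads from such close copies may be shared between genes, which leaves the level of each one uncertain. In the 250 bases before the annotated start (RefSeq, GRCm38.p6), Serpinb9e and Serpinb9f were identical at 233 of 235 aligned bases. Serpinb9e and Serpinb9g were identical at 236 of 246 and Serpinb9f and Serpinb9g at 228 of 239. The longest run common to all 3 was 60 bases. The lines give 30 bases each, with capitals on the last 25 bases of that run.
Serpinb9e: CCTAGTCAGCCAGAGAACCAAGGATcctac
Serpinb9f: CCTAGTCAGCCAGAGAACCAAGGATtctac
Serpinb9g: CCTAGTCAGCCAGAGAACCAAGGATtctac
These stretches are on the plus strand at chr13:33249408-33249437 for Serpinb9e, chr13:33323862-33323891 for Serpinb9f and chr13:33484586-33484615 for Serpinb9g. They show the build used for sequence here, while the authors counted reads on mm9.

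Serpinb7, a serpin known from skin and kidney mesangial cells, had the highest Qk5 level of all 73 genes. Its libraries held 437, 57.0 and 36.4 normalized counts in Qk5 depletion, 14.7, 7.10 and 3.26 in Qk6/7 depletion, and 13.8, 3.36 and 6.40 in control. All Qk5 libraries exceeded all control libraries, and the deepest held 601 of the 666 recovered Qk5 reads. The ratio of means was 22.5 and was 9.57 without the deepest libraries.

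Serpinb9g had 148, 28.5 and 42.2 normalized counts in Qk5 depletion, 36.4, 4.44 and 5.43 in Qk6/7 depletion, and 13.8, 7.57 and 10.2 in control. Serpinb6c had 88.0, 14.9 and 9.59 in Qk5 depletion, 4.64, 0.887 and 1.09 in Qk6/7 depletion, and 4.06, 1.68 and 2.56 in control. In both genes the Qk5 libraries lay above the control libraries, and most of the signal was again in the deepest Qk5 library. The ratio was 6.93 for Serpinb9g and 13.5 for Serpinb6c, and without the deepest libraries it was 3.97 for Serpinb9g and 5.77 for Serpinb6c.

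The other 4 serpins differed in how far they rested on the deepest libraries. Without those libraries the ratio was 1.46 for Serpinb9c, 1.82 for Serpinb9e, 3.78 for Serpinb1b and 4.46 for Serpinb9f. Over all 3 libraries it was 3.30 for Serpinb9c, 3.89 for Serpinb9e, 3.13 for Serpinb1b and 5.10 for Serpinb9f. Among the 7 serpins the deepest library held between 65.7% and 82.4% of the Qk5 signal, with a median of 72.3%.

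The chromosome 13 block was also followed beyond the 6 genes that met the rule. RefSeq lists 16 protein-coding genes between Serpinb1a and Serpinb6a, all of the Serpinb family, and 11 of them are in the expression table. Of these, 6 met the rule, which fixed their direction. The 5 others all had a higher mean in Qk5 depletion, and the authors' deposited table called 4 of them higher at an adjusted p under 0.05. Over the 963 table genes that did not meet the rule, 62.5% had a higher mean in Qk5 depletion and 31.2% were called higher. The block gene not called was Serpinb9d, with a ratio of 2.72 and an adjusted p of 0.0611 in that table. Levels of the 5 block genes that are not in the table are not known here. The table leaves out genes with no adjusted p under 0.1, as well as genes not tested. A direction for the whole block can therefore not be given.

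Serpinb6b, Serpinb1a, Serpinb9 and Serpinb9b had higher control levels, with more reads behind each value. Serpinb6b averaged 341 normalized counts in Qk5 depletion, 138 in Qk6/7 depletion and 96.1 in control, with a Qk5 adjusted p of 7.35e-11, in the authors' deposited table. Serpinb1a averaged 762 in Qk5 depletion, 292 in Qk6/7 depletion and 334 in control in the authors' deposited table, with a Qk5 adjusted p of 1.33e-06. The ratio over control in Qk5 depletion was 1.59 for Serpinb9 and 1.55 for Serpinb9b. Serpinb9b was the 1 block gene called in Qk6/7 depletion, and there it was lower, with a ratio of 0.546 and an adjusted p of 0.0109 in the authors' deposited table.

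**Figure D2:**
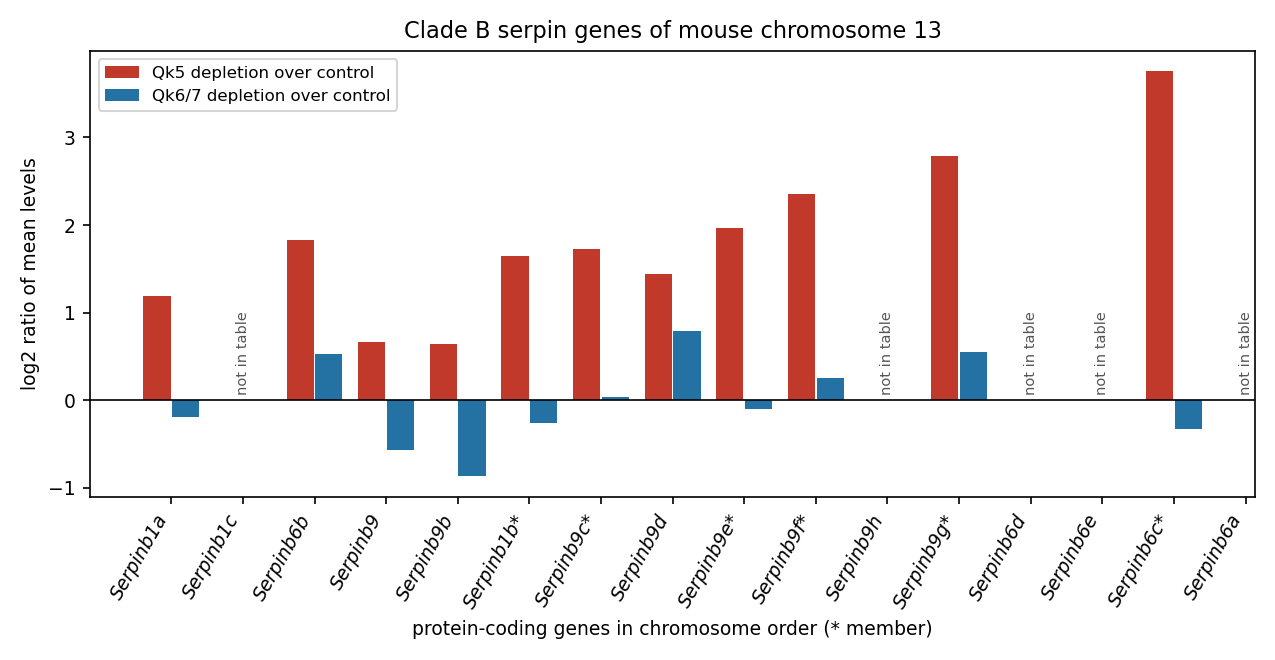
Log2 ratio of the deposited mean levels over control in Qk5 depletion (red, left bar) and Qk6/7 depletion (blue, right bar) for the 16 Serpinb genes of chromosome 13 in their order along it. The 5 table genes that did not meet the rule have red bars above 0, as the rule required of the 6 that met it, and 5 genes are marked as not in the table.

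A second set of genes is known from surface epithelia. Slurp1 is a secreted protein of keratinocytes, Sprr1b and Sprr2k are small proline-rich proteins of the cornified envelope, Lama3 is a laminin chain of epithelial basement membranes, and Cldn4 is a tight-junction claudin. All 5 were called in Qk5 depletion in the authors' deposited table, as were 60 of all 73 genes.

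Slurp1 had 295, 62.0 and 67.1 normalized counts in the Qk5 libraries, 2.32, 5.32 and 6.52 in the Qk6/7 libraries, and 10.6, 10.9 and 7.68 in the control libraries. All Qk5 values were above, and all Qk6/7 values below, all control values. The ratio in Qk5 depletion was 14.5, and 6.94 without the deepest libraries.

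Sprr1b had 162, 36.0 and 40.3 normalized counts in Qk5 depletion, 10.1, 0.887 and 6.52 in Qk6/7 depletion, and 4.87, 5.05 and 3.84 in control. Its Qk5 and control libraries did not overlap, and the ratio was 17.3 with and 8.58 without the deepest libraries. Its neighbour on chromosome 3, Sprr2k, had 85.8, 32.2 and 32.6 in Qk5 depletion, 13.9, 24.8 and 17.4 in Qk6/7 depletion, and 4.87, 12.6 and 19.2 in control. The Sprr2k ratio was 4.11, and 2.04 without the deepest libraries. Genes of this family are close copies, so reads may be shared between them. Sprr1a, of the same family, did not meet the rule and was called higher in both depletions in the authors' deposited table. It averaged 737 in Qk5 depletion, 912 in Qk6/7 depletion and 292 in control. Its deposited DESeq adjusted p was 7.62e-07 in Qk5 depletion and 1.32e-08 in Qk6/7 depletion.

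Lama3 had 185, 45.9 and 30.7 normalized counts in Qk5 depletion, 35.6, 15.1 and 9.78 in Qk6/7 depletion, and 31.7, 13.5 and 6.40 in control. The lowest Qk5 library of Lama3 lay below the highest control library, with a ratio of 5.08. Cldn4 was the most even of the epithelial genes. It had 28.4, 26.0 and 36.4 in Qk5 depletion, 5.42, 6.21 and 5.43 in Qk6/7 depletion, and 4.06, 4.21 and 3.84 in control. Its ratio was 7.50 and stayed between 6.74 and 8.03 whichever library of Qk5 depletion or control was left out.

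Epithelial genes did not all go up. The list of cytoskeletal genes of other tissues includes keratins and also tubulins. Of its 6 table genes, 3 were called higher in Qk5 depletion (Krt8, Krt14 and the neuron marker Tubb3) and 1 lower. None of them met the rule. Krt14 averaged 317 normalized counts in Qk5 depletion, 168 in Qk6/7 depletion and 165 in control, with a deposited Qk5 DESeq adjusted p of 0.0314. The simple-epithelium keratin Krt8 averaged 79.3 normalized counts in Qk5 depletion, 16.5 in Qk6/7 depletion and 24.2 in control in the authors' deposited table, with a Qk5 adjusted p of 0.000523. Krt19 averaged 414 in Qk5 depletion, 528 in Qk6/7 depletion and 807 in control, with a Qk5 adjusted p of 0.0317 in the authors' deposited table.

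Genes of striated muscle made up 8 of the 73. Myoz2 is a calsarcin of the Z-disc, Lmod3 is a leiomodin that nucleates actin thin filaments, Nebl is the nebulin-related protein nebulette, and Trim63 is the ubiquitin ligase MuRF1. Cox8b is the muscle form of a cytochrome c oxidase subunit, Hspb7 a small heat-shock protein of heart and muscle, Txlnb a muscle taxilin and Tmem182 a membrane protein of muscle cells.

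In all 8 muscle genes every Qk5 library lay above every control library. The rule favours this, and it held in 59 of the 73 genes and in 42.3% of the 343 recovered genes. The Qk5 signal of the muscle genes was spread more evenly than that of the serpins. The deepest Qk5 library held between 31.5% and 52.5% of it, with a median of 42.4%, so the ranges of the serpin and muscle groups did not overlap. In control the deepest library held a median of 48.9% for the serpins and 29.9% for the muscle genes. In Qk6/7 depletion the medians were 67.2% for the serpins and 24.4% for the muscle genes. Equal libraries would give 33.3%, so in these 2 conditions the muscle medians lay below an equal share. The authors' deposited table called 6 of the 8, and gave adjusted p-values of 0.0863 for Trim63 and 0.0976 for Txlnb.

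Myoz2 had the highest level of the muscle genes. It had 66.9, 59.5 and 44.1 normalized counts in Qk5 depletion, 4.64, 16.0 and 7.60 in Qk6/7 depletion, and 1.62, 10.1 and 3.84 in control. Its ratio was 11.0, and at least 8.16 whichever library was left out.

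Tmem182 had 65.4, 62.0 and 40.3 normalized counts in Qk5 depletion, 36.4, 30.2 and 21.7 in Qk6/7 depletion, and 12.2, 12.6 and 16.6 in control. Its levels stood in the same order in all libraries, with Qk5 depletion above Qk6/7 depletion and Qk6/7 depletion above control. The ratio was 4.05 in Qk5 depletion and 2.13 in Qk6/7 depletion. The Qk6/7 difference had an adjusted p of 0.221 in the authors' deposited table.

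Lmod3 had 66.2, 40.9 and 36.4 normalized counts in Qk5 depletion, 5.42, 21.3 and 10.9 in Qk6/7 depletion, and 14.6, 12.6 and 10.2 in control. Cox8b had 40.0, 32.2 and 15.3 in Qk5 depletion, 6.19, 8.87 and 6.52 in Qk6/7 depletion, and 4.87, 6.73 and 7.68 in control. Trim63 had 29.8, 17.4 and 9.59 in Qk5 depletion, 2.32, 3.55 and 7.60 in Qk6/7 depletion, and 4.06, 6.73 and 2.56 in control. The Qk6/7 and control values of Lmod3, Cox8b and Trim63 overlapped. Hspb7 was the lowest muscle gene, with 45 recovered reads over the Qk5 libraries and a ratio of 10.5.

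Muscle genes outside the rule, which start from higher control levels, went the same way in Qk5 depletion. Of the 19 contractile genes in the table, 16 did not meet the rule, and 13 of these were called higher and 0 lower in the authors' deposited table, against 31.2% higher and 13.8% lower over the 963 table genes that did not meet the rule. That table called none of the 19 in Qk6/7 depletion, where 7 were higher at an unadjusted DESeq p under 0.05 and 0 lower. The share of all genes tested that pass this unadjusted cut is not known here. Xirp2, a protein of myofibril attachment sites, averaged 269 normalized counts in Qk5 depletion, 51.7 in Qk6/7 depletion and 48.1 in control in the authors' deposited table (Qk5 adjusted p = 1.57e-16). Slow skeletal troponin I (Tnni1) averaged 297 in Qk5 depletion, 117 in Qk6/7 depletion and 89.4 in control in the authors' deposited table (Qk5 adjusted p = 5.40e-06). Of the 8 table genes of myogenic regulation, fusion and the neuromuscular junction, none met the rule and 3 were called higher in Qk5 depletion. One was the myogenic factor Myog, which averaged 390 in Qk5 depletion, 232 in Qk6/7 depletion and 153 in control in the authors' deposited table (Qk5 adjusted p = 0.00066).

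**Figure D3:**
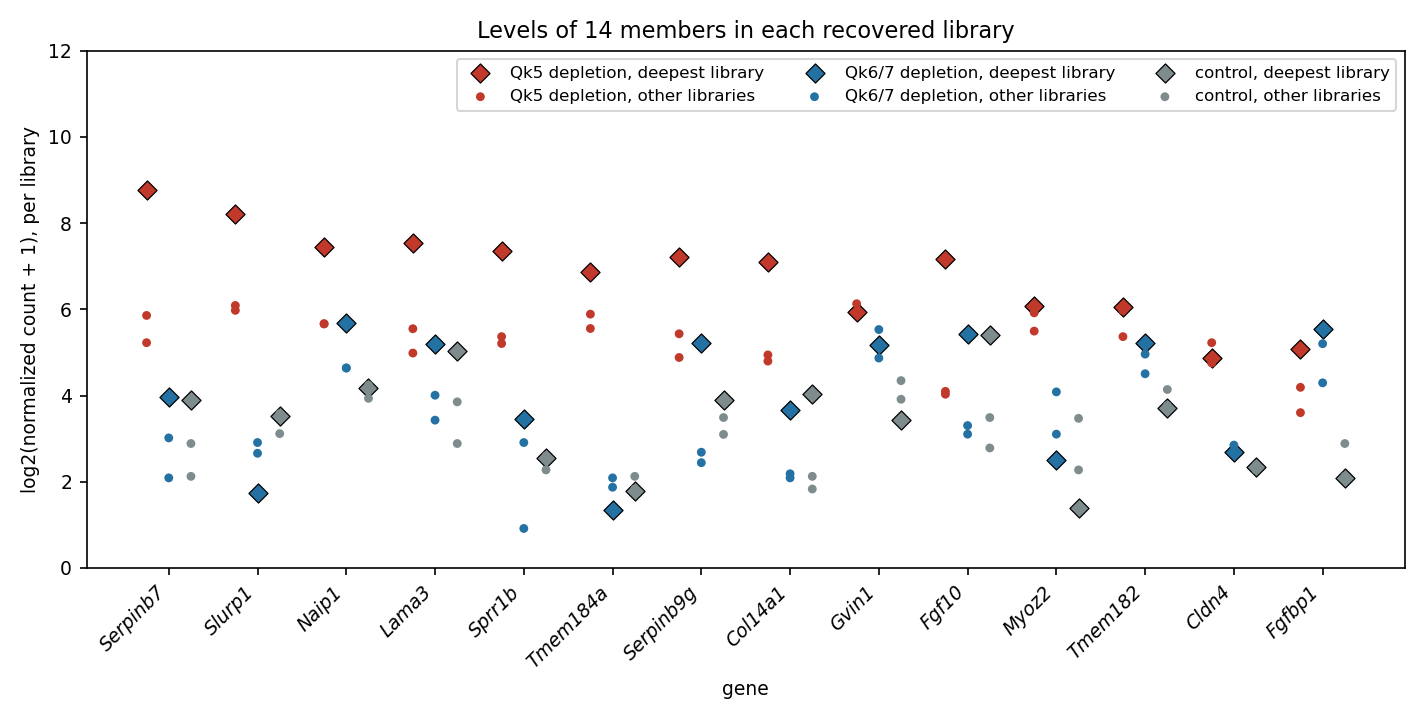
Level of 14 of the genes in each recovered library, as log2(normalized count + 1), with Qk5 depletion (red, left), Qk6/7 depletion (blue, middle) and control (grey, right); diamonds are the deepest library of a condition and dots the other libraries. The red diamond is far above the red dots in Serpinb7, Slurp1 and Fgf10 and close to them in Gvin1, Myoz2, Tmem182 and Cldn4.

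Immune-related genes numbered 8: Naip1, Gvin1, Cd200r4, Il13ra2, Ncf1, Mill2, Olr1 and Lst1. In all 8 the Qk5 libraries lay above the control libraries, which the rule favours, as in 59 of the 73 genes. The share was 42.3% over the 343 recovered genes. Naip1, an inflammasome sensor of bacterial secretion proteins, had 172, 49.6 and 49.9 normalized counts in Qk5 depletion, 50.3, 24.0 and 23.9 in Qk6/7 depletion, and 17.1, 14.3 and 17.9 in control. Both depletions were thus above control in every library, with ratios of 5.52 in Qk5 depletion and 1.99 in Qk6/7 depletion. The Qk6/7 difference of Naip1 had an adjusted p of 0.218 in the authors' deposited table.

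Gvin1 encodes a very large interferon-inducible GTPase. It had 60.3, 59.5 and 69.1 normalized counts in Qk5 depletion, 34.8, 45.3 and 28.2 in Qk6/7 depletion, and 9.75, 19.3 and 14.1 in control. The 3 conditions did not overlap in any library, with ratios of 4.38 in Qk5 depletion and 2.51 in Qk6/7 depletion (adjusted p = 0.0734 in the authors' deposited table). The symbol stands on 2 rows of that table, 1 of which met the rule. The other row had a Qk5 ratio of 2.91, and reads may be shared between such copies.

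Cd200r4, an activating receptor of the CD200 receptor family, had 92.3, 22.3 and 19.2 normalized counts in Qk5 depletion, 6.97, 1.77 and 1.09 in Qk6/7 depletion, and 7.31, 4.21 and 3.84 in control. The decoy receptor for interleukin-13, Il13ra2, had 31.3, 22.3 and 15.3 in Qk5 depletion, 3.87, 3.55 and 0 in Qk6/7 depletion, and 7.31, 3.36 and 0 in control. Qk6/7 and control libraries overlapped in both genes. The NADPH oxidase subunit Ncf1, the class I-like protein Mill2, the lectin-like receptor Olr1 and Lst1 had ratios between 3.56 (Mill2) and 6.27 (Ncf1).

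Immune genes of the table as a whole did not share one direction. Of 28 table genes on the immune and complement list, 9 were called higher (8 of them outside the rule) and 4 lower in Qk5 depletion. In Qk6/7 depletion 1 was called higher and 12 lower, all per the authors' deposited table. Over all 1036 table genes, 101 were called higher and 214 lower in Qk6/7 depletion. The interferon-induced gene Ifit1 averaged 23.6 normalized counts in Qk5 depletion, 52.7 in Qk6/7 depletion and 124 in control, with a Qk5 adjusted p of 6.87e-07 in the authors' deposited table.

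Secreted and matrix proteins numbered 11. They were Col14a1, Fgf10, Fgfbp1, Prg4, Apod, Ace, Ang2, Cpn1, Dpep2, Htra4 and Adamts15. Col14a1, a collagen that binds to fibrils, had 136, 29.8 and 26.9 normalized counts in Qk5 depletion, 11.6, 3.55 and 3.26 in Qk6/7 depletion, and 15.4, 3.36 and 2.56 in control. The deepest library was the highest in every condition, and the ratio was 9.02 with and 9.56 without the deepest libraries. Prg4, the joint lubricant lubricin, had 69.1, 26.0 and 19.2 in Qk5 depletion, 6.97, 6.21 and 5.43 in Qk6/7 depletion, and 0, 5.05 and 3.84 in control. Its ratio was 12.9 and 5.09 without the deepest libraries.

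Fgf10, a growth factor of lung and limb development, was the gene with the lowest ratio once the deepest Qk5 library was left out. It had 144, 16.1 and 15.3 normalized counts in Qk5 depletion, 41.8, 8.87 and 7.60 in Qk6/7 depletion, and 41.4, 5.89 and 10.2 in control. Without the deepest Qk5 library alone its ratio to control was 0.82, against 3.05 with all libraries, and without the deepest library of each condition it was 1.95. Fgf10 is thus the 1 gene whose direction changed when a library was left out.

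Fgfbp1, a secreted carrier of fibroblast growth factors, was the only one of the 73 genes called in Qk6/7 depletion. It had 32.7, 11.2 and 17.3 normalized counts in Qk5 depletion, 45.7, 18.6 and 35.8 in Qk6/7 depletion, and 3.25, 3.36 and 6.40 in control. Both depletions lay above control in every library, and Qk5 and Qk6/7 libraries overlapped. The ratio was 7.70 in Qk6/7 depletion (adjusted p = 2.01e-05 by the authors' DESeq, as deposited) and 4.70 in Qk5 depletion. It was also the only one of the 73 with a higher mean in Qk6/7 than in Qk5 depletion.

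Adamts15, a protease that cleaves matrix proteoglycans, had 22.5, 9.92 and 17.3 normalized counts in Qk5 depletion, 13.9, 6.21 and 8.69 in Qk6/7 depletion, and 5.69, 5.05 and 1.28 in control. The serine protease Htra4 had 67.6, 21.1 and 17.3 in Qk5 depletion, 3.87, 2.66 and 2.17 in Qk6/7 depletion, and 13.8, 5.05 and 6.40 in control. The remaining secreted genes had ratios between 3.73 for Ace, the angiotensin-converting enzyme, and 4.69 for the dipeptidase Dpep2. Among these were the lipocalin Apod, the ribonuclease Ang2 of the angiogenin family and the carboxypeptidase Cpn1.

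The lists of pathways around these genes also hold table genes that did not meet the rule. Of the 26 such genes on the extracellular matrix list, 13 were called higher and 1 lower in Qk5 depletion, per the authors' deposited table. Of the 21 on the list of cytokines, hormones and growth factors, 9 were called higher and 3 lower. Over all 963 table genes that did not meet the rule, 433 were called and 69.3% of these were higher. In Qk6/7 depletion, where all list genes are counted, 8 of 29 matrix genes were called higher and 2 lower. On the cytokine list 5 of 24 were higher and 4 lower. Of all 1036 table genes, 101 were called higher and 214 lower in Qk6/7 depletion. The matrix protein nephronectin (Npnt), which did not meet the rule, averaged 2795 normalized counts in Qk5 depletion, 1573 in Qk6/7 depletion and 845 in control, per the authors' deposited table.

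Receptors, channels and signalling proteins numbered 9. Tmem184a, a transmembrane protein, had the largest ratio among the genes with control reads, 26.3. It had 116, 58.3 and 46.0 normalized counts in Qk5 depletion, 1.55, 2.66 and 3.26 in Qk6/7 depletion, and 2.44, 3.36 and 2.56 in control. Every Qk5 library was far above all 6 others, and the ratio was at least 18.7 whichever library of Qk5 depletion or control was left out. It had 230 recovered reads over the Qk5 libraries, 8 over the Qk6/7 libraries and 9 over the control libraries.

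Among the receptors, the adhesion receptor Gpr133 (now Adgrd1) had 96.0, 24.8 and 28.8 normalized counts in Qk5 depletion, 10.1, 1.77 and 4.34 in Qk6/7 depletion, and 17.1, 3.36 and 5.12 in control. Gpr35, an orphan-class receptor, had 42.9, 26.0 and 17.3 in Qk5 depletion, 13.2, 12.4 and 9.78 in Qk6/7 depletion, and 3.25, 17.7 and 3.84 in control. In Gpr35 the lowest Qk5 library was below the highest control library. The scaffold protein Grip1 had 39.3, 8.68 and 15.3 in Qk5 depletion, 11.6, 6.21 and 8.69 in Qk6/7 depletion, and 9.75, 3.36 and 5.12 in control, and overlapped as well.

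The other 5 of this group were Slitrk6, a neuronal membrane protein, the kinase Camk2a, the protocadherin Pcdhb14, the chloride intracellular channel protein Clic3 and Rasgef1a. Their ratios lay between 3.05 (Pcdhb14) and 7.87 (Clic3). Protocadherin genes are close copies in a cluster, so reads of Pcdhb14 may be shared with its neighbours.

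Transcription and other intracellular proteins numbered 10, and 3 of them are transcription factors: Isx, Hlf and Npas2. Isx, an intestinal homeobox factor, had no recovered read in control. Its reads were 21, 1 and 0 in the Qk5 libraries, so the deepest library held 92.5% of the Qk5 signal. With a floor of 3 reads over the control group, its Qk5 mean as measured was at least 5.87-fold higher than control. The floor covers counting error in control only and leaves out the spread of the Qk5 libraries.

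Efcab3, an EF-hand protein, had 26, 7 and 4 reads in the Qk5 libraries and 2, 0 and 1 in the control libraries. The ratio of means was 12.1, and at least 8.09 whichever library was left out. Gda, the guanine deaminase, had 97, 2 and 6 reads in Qk5 depletion and 18, 2 and 0 in control, and without the deepest Qk5 library its ratio was 1.29. The remaining genes were Hlf, Npas2, B3gnt3, Ccdc148, Accsl, Tceal7 and Ablim3, with ratios between 3.01 (Npas2) and 6.72 (Tceal7).

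The last group held 15 predicted genes and clone names, of which 2 fall under the rule for named genes. 2010005H15Rik, listed by RefSeq as Csta2 of the cystatin A protease inhibitors, had 26.2, 3.72 and 1.92 normalized counts in Qk5 depletion, 1.55, 0 and 0 in Qk6/7 depletion, and 0.812, 0.841 and 0 in control. These are 36, 3 and 1 reads in Qk5 depletion and 1, 1 and 0 in control, so its ratio of 19.2 rests on 2 control reads. AK083197 had 13, 1 and 3 reads in Qk5 depletion and none in control. By its measured means it was at least 5.85-fold higher in Qk5 depletion and at least 4.20-fold higher in Qk6/7 depletion, with the same floor of 3 control reads. Its deposited DESeq adjusted p was 0.0776 in Qk5 depletion and 0.221 in Qk6/7 depletion.

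Among the predicted genes, Gm8300, Gm2016, Gm2022 and Gm5662 lie within 10 protein-coding genes of each other on chromosome 12. They are near-identical copies whose reads may be shared, so their ratios of 3.38 to 4.44 are not separate observations. The others were 1500017E21Rik, 1700016C15Rik, 2310043J07Rik, Gm6880, AK039132, AK039595, AK085995, AK089914 and AK154190, with ratios between 3.32 (AK085995) and 7.52 (AK039595).

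**Figure D4:**
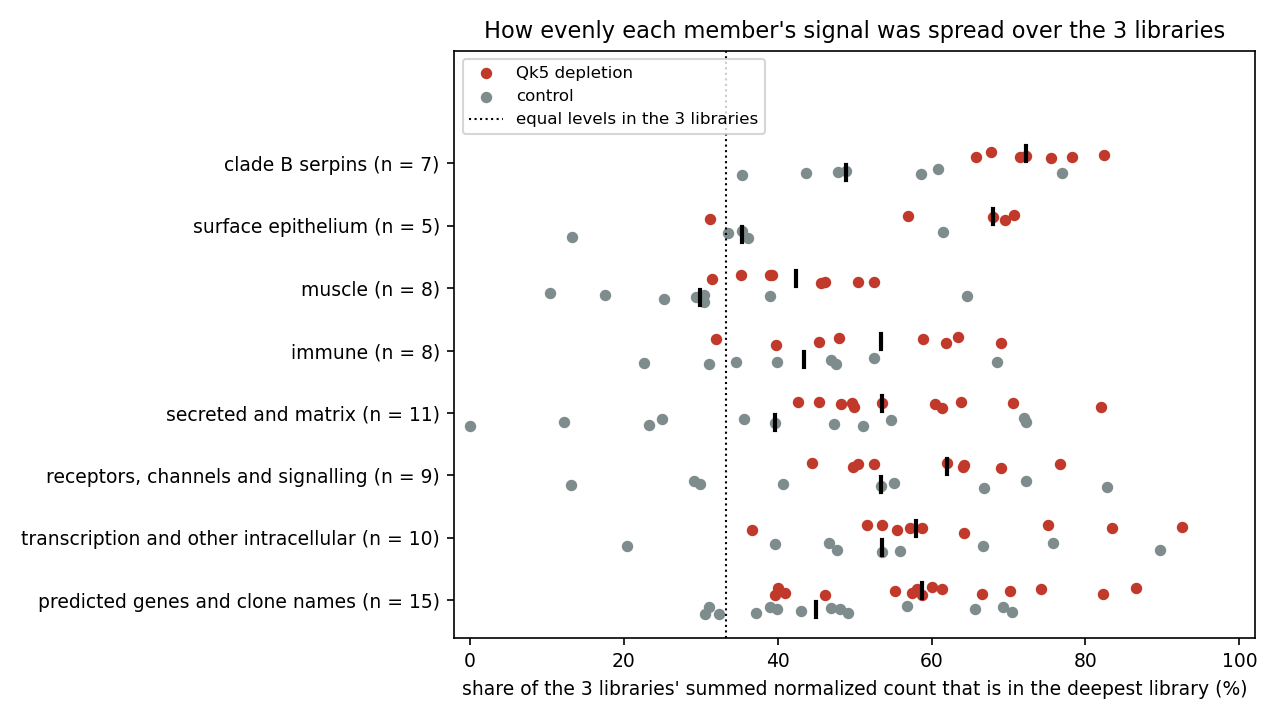
Share of each gene's summed normalized count that lies in the deepest library (horizontal axis, %), for Qk5 depletion (red, upper row of each group) and control (grey, lower row), by group; black ticks are medians and the dotted line marks equal libraries. The 7 clade B serpins lie between 65.7% and 82.4% in Qk5 depletion and the 8 muscle genes between 31.5% and 52.5%.

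Qk6/7 depletion was not used to choose the genes and can be read as a comparison, with the reservation that it shares the control libraries. A control mean that is low by chance raises both ratios. In the authors' deposited table, 1 of the 73 genes (1.37%) was called higher, Fgfbp1, against 0.61% of the 16564 genes tested. None was called lower, against 1.29% of the genes tested. The medians were 25 Qk6/7 reads and 22 control reads per gene over 3 libraries. A fall was hard to call at that depth, so the lack of calls does not show that levels were unchanged. For instance, 2310043J07Rik had a Qk6/7 ratio of 0.16 and was not called (adjusted p = 0.19 by the authors' DESeq). At an unadjusted p under 0.05 in the authors' deposited table, 7 of the 73 genes were higher and 3 lower. How many of all genes tested pass this unadjusted cut is not known here.

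The deposited log2 folds in Qk6/7 depletion were spread around 0. The median was 0.03 over the 71 genes with a finite value, with 41 above and 30 below 0. It was 0.10 over 39 other table genes with a control mean under 20, and -0.11 over the 1033 table genes with a finite value. Levels within a factor of 2 of control were found for 58 of the 73 genes.

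Every Qk6/7 library lay above every control library in 9 genes, against 15.5% of the 343 recovered genes. These were Naip1, Gvin1, Tmem182, Prg4, Cldn4, Fgfbp1, Gm6880, Adamts15 and AK083197. Every Qk6/7 library lay below every control library in 4 genes, against 23.3% of the recovered genes. The 4 genes were Slurp1, Htra4, Lst1 and 2310043J07Rik, and none of them was called lower in the authors' deposited table.

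The mean in Qk5 depletion exceeded that in Qk6/7 depletion in 72 of the 73 genes, and in 51 every Qk5 library exceeded every Qk6/7 library. The rule selected high Qk5 values, so these counts describe the selection. A direct test between the depletions is not part of the table, and none was made for these genes.

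**Figure D5:**
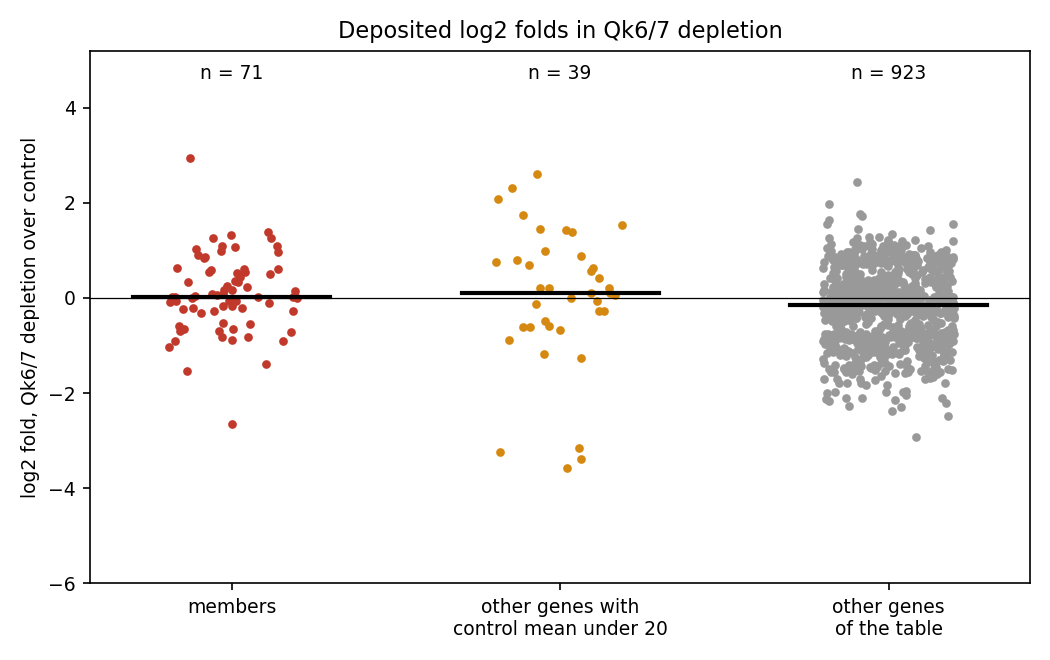
Deposited log2 fold of Qk6/7 depletion over control (vertical axis) for the 71 of the 73 genes with a finite value, for 39 other genes with a control mean under 20 and for the other genes of the table; bars are medians. The 71 values centre near 0, with Fgfbp1 as the highest point.

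No gene of the 73 has an exon bin in the deposited splicing tables, the longer of which covers 228 genes. Splicing of these genes can therefore not be described.

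Start regions were searched for letters that muscle and other basic helix-loop-helix factors can bind, known as E-boxes. Of the 73 genes, 47 had at least 1 entry in the RefSeq promoter table (GRCm38.p6), 59 entries in all, and the 250 bases before each start were searched on both strands. CAGCTG was found in 16 of the 59 (27.1%), against 13.0% of 32851 promoters. CACCTG was found in 13 (22.0%, against 17.2%), and CANNTG, which includes both, in 45 (76.3%, against 66.2%). TATAAA was found in 11 (18.6%, against 12.4%). A match is a description of letters, several entries belong to 1 gene, and no test was made.

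The E-box nearest the start is printed for the 4 highest genes that have one among those named by level or list, 30 bases each, with the motif in capitals.
Tmem184a: gttcctggaagcCAGCTGctactgggcaaa
Myoz2: tatatagccagttgatgtCAGCTGgatgcc
Tmem182: gcctgccattctCAGCTGctggcttggagc
Cd200r4: gtacagattcatCAGCTGtatacataaggt
The stretch of Tmem184a lies on the minus strand at chr5:139814329-139814358 and its motif begins 63 bases before the start. That of Myoz2 lies on the minus strand at chr3:123034988-123035017, 12 bases before the start. That of Tmem182 lies on the plus strand at chr1:40805548-40805577, 41 bases before the start, and that of Cd200r4 on the plus strand at chr16:44820531-44820560, 185 bases before it. Tmem184a had 3 CAGCTG or CACCTG matches in its window and the other genes 1 each.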

How the data were processed

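Per the file headers, the authors' deposited expression table holds a mean signal for each condition, made of read counts scaled by size factors. Beside it stand the fold (ratio) over control, its log2, a p-value, an adjusted p-value and a direction score of -1, 0 or 1, all as deposited. The submitters' processing notes name DESeq, bedtools, SAMtools, TopHat2 and Bowtie2, used by the authors with the mm9 build. Versions, counting method and strand setting are not stated in them. No count model was refitted, and calls use the deposited adjusted p at 0.05. One row broken across fields was rejoined. The numbers of genes tested, 16604 and 16564, follow from the adjusted p-values.

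Read counts per library were recovered as whole-number solutions of the 3 means. In simulated means of 567 genes over 4 conditions, 510 genes were solved and all 510 were right. The simulated means were under 30, so the split over libraries at higher means was not checked by them. The Qk5 means of the selected genes had a median of 32.2 and reached 177. In the deposited data 343 of 361 table genes with all means at or under 200 were solved. Promoter stretches were aligned with Biopython.

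The members and lists were chosen with earlier results of these data known. Genes named with values are the 12 with the highest Qk5 mean, the 8 with the largest ratio, those with a control mean of 0, those called in Qk6/7 depletion, those on a role list, up to 2 others per role list, and those beside the ratio threshold. Other serpins, Cldn4, Sprr1a, Sprr2k, Krt14, Hspb7, Gda, Rasgef1a and the genes given as ends of a range were chosen after their values were seen.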

Additional observations from a re-analysis of the deposited data

Results flagged for a closer look

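In 4 of the genes every Qk5 library lay above, and every Qk6/7 library below, all control libraries. The rule favoured the Qk5 side of this pattern. Over the 343 recovered genes, 23.3% had every Qk6/7 library below every control library, a larger share than among the 73. The 343 come from a table that admits genes for an adjusted p under 0.1 in either comparison. The 73 were chosen for low control means, which leaves less room below control, so nothing is read from this difference in share. The difference between the depletions was not tested in any of the 4 genes. The ratio of the Qk6/7 mean to the control mean was 0.486 for Slurp1, 0.345 for Htra4, 0.381 for Lst1 and 0.16 for 2310043J07Rik. In the authors' deposited table the Qk6/7 adjusted p was 0.537 for Slurp1, 0.486 for Htra4, 1 for Lst1 and 0.19 for 2310043J07Rik.

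2310043J07Rik, listed by RefSeq as Upk3bl, had 42.2, 12.4 and 17.3 normalized counts in Qk5 depletion, 1.55, 1.77 and 0 in Qk6/7 depletion, and 8.93, 6.73 and 5.12 in control. Lst1 had 32.7, 8.68 and 11.5 in Qk5 depletion, 3.10, 0.887 and 0 in Qk6/7 depletion, and 3.25, 3.36 and 3.84 in control. At these levels a library holds few reads.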

How the results depend on the processing

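No paired analysis was possible because the recovered libraries carry no replicate number. The 73 genes became 54 with a control mean under 10, 71 with a Qk5 mean of at least 10, 52 at 4 times control, 100 at 2 times control and 74 with Mb kept. Alternatives by library were chosen after seeing the data and cover genes with recovered counts. Leaving out 1 library gave 37 to 98 genes, the 37 without the deepest Qk5 library, and kept 40 to 73 of the 73 at 3 times control. The median ratio then lay between 3.10 and 6.30. The 37 were all among the 73. Without the deepest library of each condition 57 genes met the rule, 52 of them among the 73. Genes called in Qk5 depletion were 42 at adjusted p 0.01 and 73 at 0.1. In Qk6/7 depletion the 1 gene called higher became 2 at adjusted p 0.1 (Fgfbp1 and Gvin1), and 2 genes were called in either direction when 2 times control sufficed. The median Qk6/7 log2 fold was 0.34 over the 49 genes with a Qk6/7 mean of at least 5. It was -0.22 to 0.39 when 1 Qk6/7 or control library was left out, so its sign depended on the library. The SD of the median between Qk6/7 libraries was 0.52. That SD comes from the same libraries and leaves out the spread of the controls, so it is no test of this range.

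Depth limits these genes: a control library often held fewer than 10 reads per gene. Counts recovered from means are exact only as far as the check reached, and 18 of 361 table genes were not solved. Whether the deepest library is the replicate sequenced in 2 runs is not known here.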
